A study of Mus musculus with 16 samples.

Results

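The receptor genes Il2ra, Il15ra and Il2rb were followed through H3K27ac and open chromatin in T cells with and without the transcription factor Bcl11b. Members were all enriched islands that overlapped either of 2 windows of the mouse build mm9, one on chromosome 2 from 11540001 to 11670000 for Il2ra and Il15ra, and one on chromosome 15 from 78290001 to 78345000 for Il2rb. These windows held 191 of the 469755 islands in the 16 deposited lists, 60 of H3K27ac and 131 of DNase. The rule uses positions and no threshold on a value. The loci were, however, chosen by a reader of earlier results on island coverage in these same 16 lists, so calls inside them describe the loci and are no independent evidence of a direction.

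The cells were CD4 T cells of C57BL/6 mice in which every group, controls included, carried floxed Bcl11b alleles and CreERT2, a Cre recombinase activated by 4-hydroxytamoxifen (4-OHT). Early KO cells were kept under T helper 2 (Th2) conditions with 4-OHT for 4 days, and early WT cells for the same 4 days without it. Late KO cells first had 4 days under Th2 conditions without 4-OHT, then rested for 1 day in medium with IL-2, and then met Th2 conditions and 4-OHT for another 4 days. Late WT cells went through these steps without 4-OHT. Each group had 2 libraries of H3K27ac ChIP-seq and 2 of DNase-seq, which maps open chromatin. No WT group received 4-OHT, so loss of Bcl11b and exposure to 4-OHT cannot be told apart. The labels name neither the promoter that drives CreERT2 nor the animals behind each replicate, and they give the isolated cells both as naive and as sorted for high CD44. With no mm9 gene annotation at hand, Th2 and T cell marker genes and the deleted part of Bcl11b were not checked.

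The IL-2 receptor is built from an alpha, a beta and a common gamma chain. Il2ra encodes the alpha chain (CD25), which binds IL-2 and raises the affinity of the receptor, and is induced on activated T cells, in part by IL-2 itself through the transcription factor STAT5. Il15ra encodes the alpha chain that binds IL-15 and presents it to neighbouring cells. Il2rb encodes the beta chain (CD122), which both receptors share for signalling and which is abundant on natural killer and memory CD8 T cells. H3K27ac marks active promoters and enhancers, and DNase-seq marks DNA that is open to cutting. Along chromosome 2 the protein-coding genes lie in the order Rbm17, Il2ra, Il15ra, Fbh1 with rising coordinates, and along chromosome 15 in the order Tmprss6, Il2rb, C1qtnf6 (RefSeq, GRCm38). That table is of another build, so islands are given by their mm9 position and are not assigned to a promoter, an intron or an exon.

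The promoters of the alpha chains are shown because they are the control sequences of 2 of the genes under study. RefSeq sequences of GRCm38.p6 were at hand for 2 of the 3 genes, 1 for Il2ra (chr2:11642542-11642841, plus strand) and 2 for Il15ra (chr2:11705043-11705342 and chr2:11705462-11705761, plus strand). Each runs from 250 bases before a start site to 50 after it. These GRCm38 positions cannot be set beside the mm9 positions of the islands. Capitals mark matches on either strand to short motif cores. The core searched for STAT was TTCNNNGAA. For GATA it was AGATAA, and as a variant also TGATAA. For Runx it was TGTGGT, for AP-1 it was TGANTCA and for NFAT it was GGAAA.
Il2ra promoter 1: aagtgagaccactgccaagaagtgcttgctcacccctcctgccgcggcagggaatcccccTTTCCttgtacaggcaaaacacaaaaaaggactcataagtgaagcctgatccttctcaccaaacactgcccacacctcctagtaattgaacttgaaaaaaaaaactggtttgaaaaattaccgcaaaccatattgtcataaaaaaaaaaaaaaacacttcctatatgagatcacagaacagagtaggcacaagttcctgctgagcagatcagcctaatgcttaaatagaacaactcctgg
Il15ra promoter 1: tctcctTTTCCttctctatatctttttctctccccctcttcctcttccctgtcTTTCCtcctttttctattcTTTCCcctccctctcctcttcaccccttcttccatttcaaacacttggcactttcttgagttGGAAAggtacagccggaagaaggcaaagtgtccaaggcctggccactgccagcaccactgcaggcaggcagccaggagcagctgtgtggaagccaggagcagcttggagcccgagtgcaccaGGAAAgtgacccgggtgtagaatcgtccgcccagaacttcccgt
Il15ra promoter 2: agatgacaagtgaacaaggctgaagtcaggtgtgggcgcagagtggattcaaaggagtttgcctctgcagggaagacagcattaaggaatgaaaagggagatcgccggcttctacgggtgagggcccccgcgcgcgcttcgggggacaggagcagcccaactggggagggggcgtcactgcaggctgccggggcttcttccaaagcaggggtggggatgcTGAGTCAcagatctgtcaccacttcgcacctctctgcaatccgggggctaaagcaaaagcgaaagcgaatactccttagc
Il2ra promoter 1 held 1 match to the NFAT letters and Il15ra promoter 1 held 5, where 61.3% of the 32851 promoters in the table held at least 1. Il15ra promoter 2 held 1 match to the AP-1 letters, found in 7.81% of promoters. None of the 3 held the STAT, GATA or Runx letters, which 8.30% (STAT), 11.2% (AGATAA), 9.05% (TGATAA) and 16.8% (Runx) of promoters held. No marked match overlapped another motif of the list. These matches describe letters in the windows shown and not binding.

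The lists differ in length, which bears on DNase. H3K27ac lists held 26548 to 32112 islands over 100.9 to 111.7 Mb. DNase lists held 17397 and 18812 islands in late KO cells, against 27416 and 36963 in late WT cells, and 24286 and 37956 in early KO cells, against 37525 and 39736 in early WT cells. The files hold no read counts, so depth is unknown, and a place without an island is only one that a list does not hold. Fewer cells with a mark and less of the mark per cell cannot be told apart in these bulk libraries.

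The Il2ra side of the chromosome 2 window held some of the highest-scoring H3K27ac islands of every list, in both genotypes. An island of at least 34.6 kb from 11555201 to 11589800 was present in all 8 H3K27ac libraries. By the authors' score, which serves here only to rank islands within a list, the island over this stretch had rank 37 of 32112 and 37 of 28126 in the early KO lists, against 14 of 26548 and 13 of 28410 in the early WT lists. It had rank 8 of 27722 and 35 of 29459 in the late KO lists, against 34 of 26611 and 44 of 30676 in the late WT lists. In late KO replicate 1 it was joined to its neighbours on both sides into 1 island of 78.2 kb, and in late KO replicate 2 it ran on upwards to 69.4 kb, while in the other 6 libraries it was 35.0 to 36.0 kb wide. A second shared stretch covered the lower 13 kb of the window, from 11540001 to 11553000. Further stretches shared by all 8 lay at 11593601 to 11599600, 11600801 to 11607400, 11608201 to 11618600 and 11626601 to 11628400. Of the 200-bp windows with an H3K27ac island in any library, 78.9% (362 of 459) were covered in all 8, against 35.7% over the genome. Above 11631800 no H3K27ac library had an island, so the upper 3 bins of 10 kb were empty throughout.

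**Figure D1:**
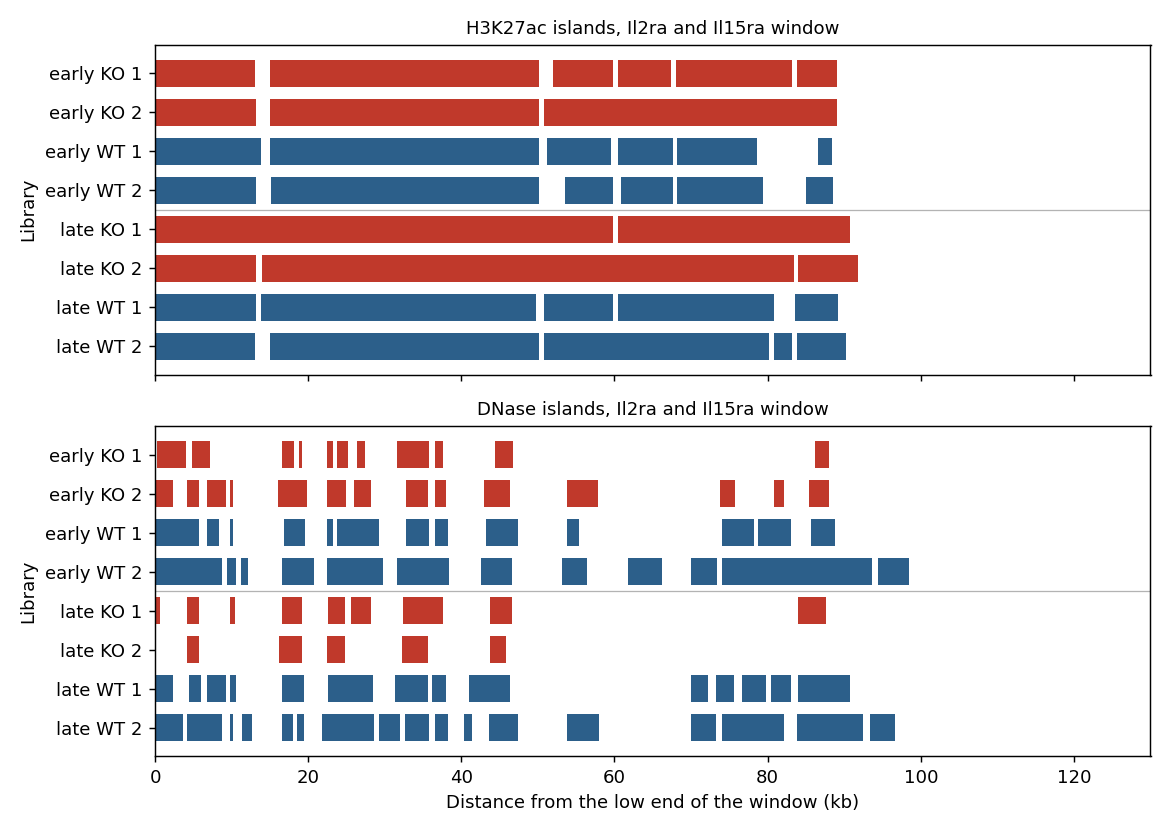
Islands of H3K27ac (upper panel) and DNase (lower panel) in the Il2ra and Il15ra window, 1 row per library with KO in red and WT in blue. The x axis gives the distance in kb from the low end of the window. H3K27ac fills most of the lower 80 kb in all 8 libraries, and DNase islands between 70 and 80 kb are present in the 4 WT libraries and in 1 KO library.

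The acetylated length differed between genotypes mainly at the upper end, on the side where Il15ra lies. Over the Il2ra domain this measure could show little. Of the 13 bins of the window 3 were full in all 8 libraries, so no difference could appear in them. Over the whole window H3K27ac covered 83.4 and 86.6 kb in early KO cells, against 76.8 and 76.0 kb in early WT cells, a difference of means of 8.6 kb. It covered 90.2 and 90.4 kb in late KO cells, against 84.2 and 86.4 kb in late WT cells, a difference of 5.0 kb. Both KO libraries stood above both WT libraries at each stage. Over tiles of 130 kb across the genome this order was met by 34.8% in early cells and 28.5% in late cells, so it is common in these libraries. As a share of all covered DNA, late KO replicate 1 fell below both late WT libraries (0.808 and 0.896 kb per Mb of list in late KO, against 0.825 and 0.840 in late WT).

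The bin from 11620001 to 11630000 carried most of the early difference. H3K27ac covered 8.4 and 9.0 kb of it in early KO cells, against 1.8 and 3.6 kb in early WT cells. In late cells it covered 10 and 9.4 kb in KO, against 6.4 and 8.8 kb in WT. The early groups lay far apart and the late groups also did not overlap, with late WT between early WT and late KO. In the fit over all 39126 bins, on log2(kb + 0.5), the early change was 1.54 ± 0.29 (SE, limma adjusted p = 0.018) and the late change 0.31 ± 0.29 (limma adjusted p = 0.766). The difference between these changes did not pass (log2 -1.23 ± 0.42, SE, limma adjusted p = 0.173). It was the only one of the 16 tested bins of both windows called in early KO, all others having adjusted p of 0.503 or more. Over the genome 14.6% of bins were called in this comparison (9.17% higher and 5.43% lower), so 1 of 16 is no more than the general rate. The call was lost without early KO replicate 1 (limma adjusted p = 0.0821) or replicate 2 (limma adjusted p = 0.0894).

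At the resolution of 200 bp the gain was a filled gap. In both early WT lists the H3K27ac domain ended at 11618600 or 11619400, and a separate island followed at 11626601 or 11625001. Both early KO lists covered 11619401 to 11623200 and 11623801 to 11625000, where neither early WT list had an island. In late WT cells the gap was partly filled, with 1.4 and 3.2 kb of the 3.8-kb stretch covered, against all of it in both late KO lists. Late KO islands also reached 11630800 and 11631800 at the upper edge, against 11629200 and 11630200 in late WT, so that 11630201 to 11630800 was in both late KO and neither late WT list, as was 11590201 to 11590800. In the bin above, from 11630001, this left 0.8 and 1.8 kb in late KO, against 0.0 and 0.2 kb in late WT (limma adjusted p = 0.0825, not called). Windows found in both early KO and neither early WT list made up 6.42% (28 of 436) of those covered in either, with 7.61% over the genome. In both early WT and neither early KO list there were 0 of 436, with 5.48% over the genome. In late cells 7 of 459 (1.53%) were in both KO and neither WT list and 0 in the reverse, with 5.42% and 3.47% over the genome. With lists cut to equal length the count in both KO and neither WT list was 19 of 459 (4.14%, against 5.56% over the genome). Windows in all 4 KO and no WT list numbered 0, with 1.24% over the genome, but 12 of 459 (2.61%) with lists cut to equal length, with 1.21% over the genome. In all 4 WT and no KO list there were 0, with 0.368% over the genome.

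Open chromatin at the same upper end was listed mostly in WT cells. In the bin from 11610001 to 11620000, next to the acetylation gap, DNase islands covered 0.0 and 2.0 kb in early KO cells, against 5.4 and 9.4 kb in early WT cells. They covered 0.0 and 0.0 kb in late KO cells, against 7.8 and 9.2 kb in late WT cells. All 4 WT libraries stood above all 4 KO libraries, while H3K27ac filled this bin in all KO and late WT libraries and covered 8.6 and 9.4 kb in early WT. How many bins over the genome had that DNase order was not counted. The late change was called (limma adjusted p = 0.0325) and the early change was not (log2 -2.52 ± 0.61, SE, limma adjusted p = 0.101). The early value was -1.43 without early KO replicate 1, while without early KO replicate 2 the remaining KO list was at 0. No fold is given for late cells, because both KO lists were at 0 there. The next bin up, from 11620001, had 1.8 and 4.0 kb in early KO, against 6.2 and 10 kb in early WT, and 3.6 and 0.0 kb in late KO, against 8.6 and 8.4 kb in late WT. Neither stage was called there (limma adjusted p = 0.723 and 0.241). In this bin the genotypes thus stood in opposite order in the 2 assays at both stages, with H3K27ac higher and DNase lower in KO lists. The share of bins over the genome with this opposite order was not counted, and the late KO DNase lists were the shortest.

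**Figure D2:**
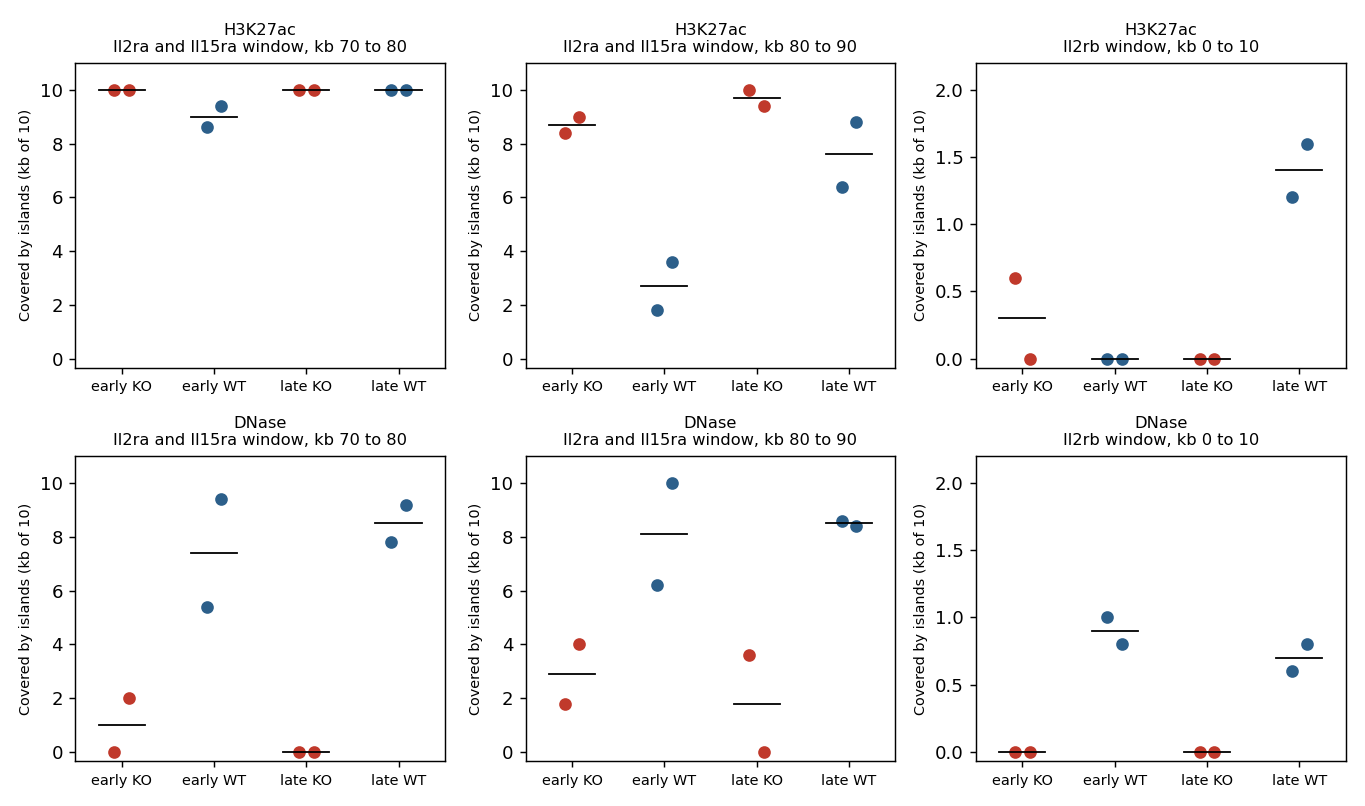
Length covered by islands (y axis, kb of a 10-kb bin) in each library, for H3K27ac (upper row) and DNase (lower row), with KO left of WT at each stage and the mean of 2 libraries as a line. In the middle column the KO libraries of each stage lie above the WT libraries of that stage for H3K27ac and below them for DNase.

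The DNase difference moved with list length. With all 8 lists cut to the 17397 highest scores, the late change in the bin from 11610001 was no longer called (limma adjusted p = 0.581), nor was it with the upper 50% of each list (0.535). It was called with quantile normalization (limma adjusted p = 0.023) and without centring (0.0385). The call was also lost when any late library or either early WT library was left out, with adjusted p of 0.0636 to 0.16. Over the window DNase islands covered 20.8 and 33.0 kb in early KO, against 38.8 and 68.0 kb in early WT, and 21.8 and 12.4 kb in late KO, against 44.4 and 58.6 kb in late WT. Both KO libraries lay below both WT libraries at each stage, as in 32.8% of 130-kb tiles of the genome in early and 63.7% in late cells. Per Mb of list the window still held less in KO: 0.663 and 0.669 kb in early KO, against 0.838 and 1.02 kb in early WT, and 0.841 and 0.473 kb in late KO, against 0.993 and 1.12 kb in late WT. On that scale 21.1% of tiles in early and 27.1% in late cells showed the same order.

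Several stretches were open in all 4 WT and in no KO library. They added up to 22 of the 389 windows of 200 bp with a DNase island in any library (5.66%, against 1.08% over the genome). With lists cut to equal length, 13 of 279 windows met this rule (4.66%, against 0.91% over the genome). Only part of these 13 were among the 22. The longest lay from 11616601 to 11618200 and from 11618801 to 11619800, beside the acetylation gap, and another from 11628001 to 11628800. With equal lists the runs from 11616601 and 11618801 no longer met this rule, while the run from 11628001 did. The reverse pattern, all 4 KO and no WT, was met by 0 windows here and by 0.112% over the genome. Within a stage, windows open in both WT and neither KO list made up 11.5% (41 of 357) in early cells, with 8.21% over the genome, and 28.7% (94 of 328) in late cells, with 15.8% over the genome. With equal lists the late share was 21.1% (53 of 251), with 9.82% over the genome. The early runs of this kind of at least 600 bp lay at 11565201 to 11566000, 11568201 to 11569200, 11615801 to 11618200, 11618801 to 11620800, 11622201 to 11623000 and 11628001 to 11628800. The late runs lay at 11540601 to 11542400, 11546801 to 11548800, 11564801 to 11565600, 11571401 to 11572000, 11610001 to 11612200, 11614001 to 11615600, 11616601 to 11619800, 11620401 to 11622200 and 11627601 to 11630800. Of these, 4 of 6 early and 5 of 9 late runs lay between 11610001 and 11630800, in the bins with the acetylation gap and around it. With equal lists, 2 of the 4 early and 2 of the 5 late runs that still met the rule lay there. Windows open in both KO and neither WT list numbered 0 at each stage, with 1.57% in early and 1.26% in late cells over the genome.

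Open sites over the Il2ra domain were listed in all groups. Windows covered in all 8 DNase libraries made up 10.8% (42 of 389), with 12.1% over the genome. Runs from 11556801 to 11558000, 11563801 to 11564800, 11572801 to 11575600 and 11584401 to 11585800 were covered in all 8 DNase libraries, as were those from 11544801 to 11545800 and from 11562601 to 11563200. With equal lists the runs from 11584401 and 11562601 were no longer covered in all 8. Island widths at the sites from 11544801, 11556801 and 11572801 overlapped between the genotypes. By contrast, at the site from 11584401 the island was 2.0 to 3.4 kb wide in the 4 KO lists, against 3.8 to 5.4 kb in the 4 WT lists. The island of early WT replicate 1 there ranked 19787, beyond the 17397 islands of the shortest list. The island over 11563801 to 11564800 was 1.4 to 2.6 kb wide in the 4 KO lists, against 5.4 to 7.4 kb in the 4 WT lists. Its rank stood between percentiles 58.0 and 89.9 of the KO lists, against 89.7 and 97.4 of the WT lists, and since lists differ in length these describe standing within a list only. At 11565201 to 11565600, just above it, all 4 WT lists and no KO list had an island, also with lists of equal length. Higher up a separate island followed in early KO replicates 1 and 2 and in late KO replicate 1, within the span of WT islands. This narrows the difference in covered length. The share of islands elsewhere with widths separated as at 11563801 and 11584401 was not counted. The 10-kb bin from 11560001 was not called at either stage (limma adjusted p = 0.653 early and 0.55 late).

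At the low end of the window a strong open site straddled the boundary. In the bin from 11540001 to 11550000 DNase islands covered 6.2 and 6.6 kb in early KO, against 7.6 and 9.4 kb in early WT, and 2.4 and 1.6 kb in late KO, against 6.6 and 8.4 kb in late WT. The late change was -1.33 ± 0.25 on the log2 scale (SE, limma adjusted p = 0.0475) and the early change -0.12 ± 0.25 (limma adjusted p = 0.902), with no call for their difference (limma adjusted p = 0.175). Among fits with 1 library left out, the late call held only without late KO replicate 1 (limma adjusted p = 0.0438) and was lost in the other 7, with adjusted p of up to 0.212. It was also lost with a pseudocount of 2 kb (limma adjusted p = 0.0642) and with no filter on bins (0.0511), and it held with equal lists (0.0464) and quantile normalization (0.0372). In WT lists 1 island of 4.4 to 11.6 kb, at percentiles 99.1 to 99.6, ran from below the boundary into the window. In 3 of 4 KO lists the highest-scoring island there was 1.0 to 1.2 kb wide and ended below the boundary, at percentiles 94.9 to 98.4, and in late KO replicate 1 it crossed the boundary by 0.6 kb. Both early KO lists held a second, lower-scoring island next to it, from 11540201 to 11544000 in replicate 1 and from 11539601 to 11542400 in replicate 2. The 4.4 kb from 11538001 to 11542400, shared by all WT islands, was thus covered over 3.2 and 3.8 kb in early KO and over 2.6 and 1.0 kb in late KO. Of the 14 bins tested in both windows these 2 were called in late KO, both lower, where 2.16% of 37586 bins were called (1.81% lower and 0.343% higher). In early KO 0 of 14 bins were called by limma, 2 of them with an unadjusted p under 0.05, where 1.23% of all bins were called (0.54% higher and 0.689% lower).

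The Il2rb window held an acetylated domain and an open site that all 8 libraries of each assay shared. Windows of 200 bp covered in all 8 libraries made up 62.9% (134 of 213) for H3K27ac, against 35.7% over the genome, and 19.0% (16 of 84) for DNase, against 12.1%. With equal lists the DNase share lay below that of the genome (13.4%, 11 of 82, against 16.2%). H3K27ac covered 78305201 to 78327800 in all 8 libraries, in islands of 25.6 to 29.6 kb in KO lists and 23.6 to 27.2 kb in WT lists, at percentiles 98.7 to 99.1 of KO lists and 98.0 to 98.6 of WT lists. Within it the DNase run from 78323801 to 78326000 was covered in all 8 libraries, at percentiles 97.8 to 99.1 of KO lists and 98.0 to 99.0 of WT lists. The total H3K27ac coverage of the window was 39.0 and 36.2 kb in early KO, against 32.6 and 35.4 kb in early WT. It was 33.0 and 35.0 kb in late KO, against 33.4 and 34.2 kb in late WT. Only the early groups did not overlap, in the order met by 31.2% of 55-kb tiles of the genome. Per Mb of list they overlapped as well, with 0.372 and 0.335 kb in early KO, against 0.304 and 0.344 kb in early WT. DNase islands covered 6.4 and 10 kb in early KO, against 7.4 and 13 kb in early WT, and 5.4 and 9.4 kb in late KO, against 11.8 and 10.2 kb in late WT. The early groups overlapped, and the late order was that of 54.1% of tiles. Scaled by list length the order of the means turned. Early KO then had 0.203 ± 0.00100 kb per Mb of list and early WT 0.177 ± 0.0246 (SD, n = 2 each). Late KO had 0.283 ± 0.106 kb per Mb and late WT 0.229 ± 0.0489 (SD, n = 2 each).

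**Figure D3:**
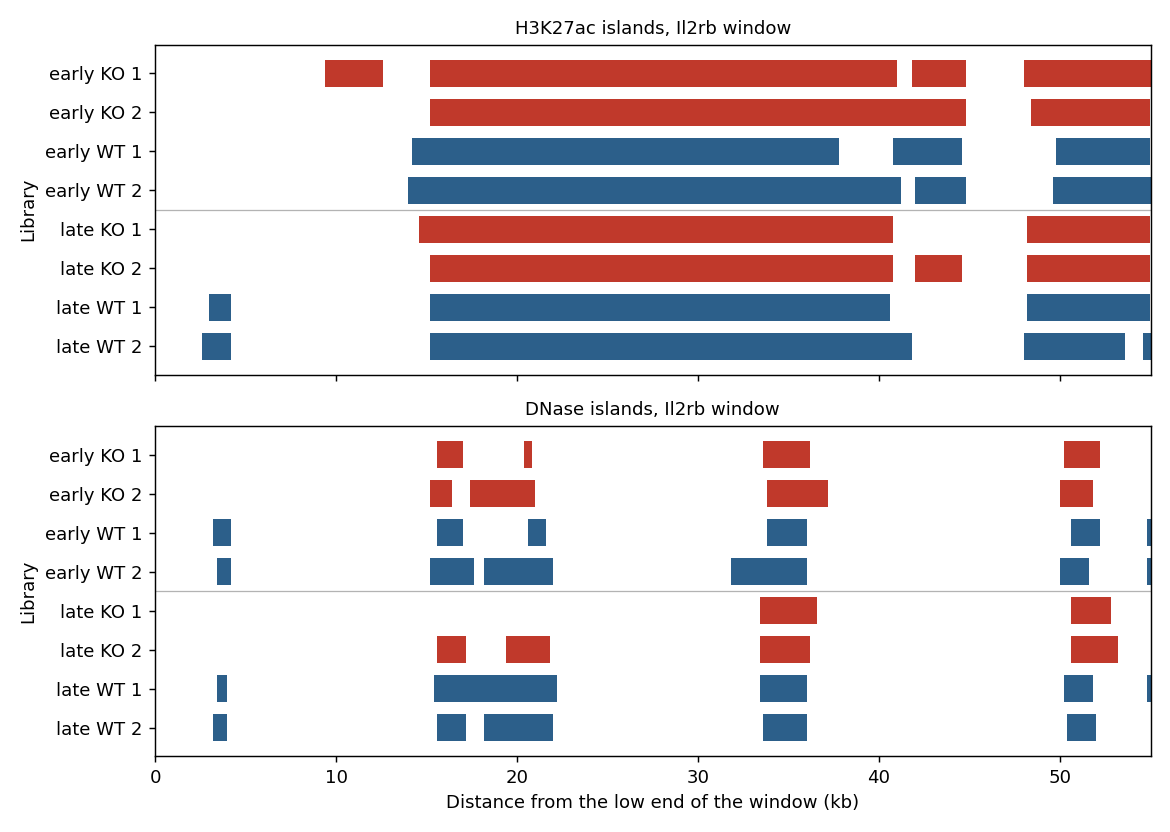
Islands of H3K27ac (upper panel) and DNase (lower panel) in the Il2rb window, 1 row per library with KO in red and WT in blue, against the distance in kb from the low end of the window. The small DNase island near 3 kb is present in the 4 WT libraries and in no KO library, and H3K27ac covers that place in the 2 late WT libraries alone.

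A small site at the low end of the window, on the side of Tmprss6, was listed in WT cells alone. Tmprss6 encodes a membrane serine protease of iron regulation in the liver. DNase islands covered 78293401 to 78294000 in all 4 WT libraries and in no KO library. They stood at percentiles 35.3 and 38.3 of the early WT lists and 53.5 and 64.9 of the late WT lists. In the early WT lists their ranks, 24295 and 24529, lay beyond the 17397 islands of the shortest list, while the late ranks, 12748 and 12974, lay within it. H3K27ac islands over the same place were found in both late WT libraries (1.2 and 1.6 kb wide) and in no other library. In the 10-kb bin from 78290001 H3K27ac covered 0.0 and 0.0 kb in late KO, against 1.2 and 1.6 kb in late WT, and 0.6 and 0.0 kb in early KO, against 0.0 and 0.0 kb in early WT. The 0.6 kb of early KO belonged to an island from 78299401, at the other end of the bin. The late KO change was called (limma adjusted p = 0.0463), the only 1 of the 16 H3K27ac bins, where 6.75% of all bins were called (2.76% lower and 3.99% higher). Among the 8 fits with 1 library left out it held only without early KO replicate 1 or 2 and was lost in the other 6, with adjusted p of 0.0705 to 0.204. It was also lost without centring (limma adjusted p = 0.0563) and with no filter on bins (limma adjusted p = 0.0577). The difference between the late and early KO changes had an adjusted p of 0.0503 in limma and was not called. It was called with quantile normalization (limma adjusted p = 0.00662), with equal lists (0.00521) and without early KO replicate 1 (0.0357) or 2 (0.0171). In DNase the same bin, with 0.0 kb in all KO libraries, against 1.0, 0.8, 0.6 and 0.8 kb in the WT libraries, was not called (limma adjusted p = 0.172 early and 0.266 late). DNase windows in all 4 WT and no KO list made up 3.57% (3 of 84) around Il2rb, with 1.08% over the genome. With equal lists they numbered 0 of 82. H3K27ac windows in both late WT and neither late KO list made up 3.13% (6 of 192), with 3.47% over the genome.

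Above the Il2rb domain, on the side of C1qtnf6, a further H3K27ac island was wider in KO lists. It was 13.6 and 12.8 kb wide in early KO, against 6.0 and 6.4 kb in early WT, and 9.4 and 11.6 kb in late KO, against 7.6 and 5.6 kb in late WT. It stood at percentiles 91.8 to 96.3 of KO lists and 79.5 to 85.2 of WT lists. The upper end lay at 78351600, 78351200, 78347600 and 78349800 in the KO libraries and at or below 78346000 in the WT libraries. In 3 of the 4 WT libraries and in late KO replicate 1 a separate island followed after a short gap, which narrows the difference in covered length. In early WT replicate 1 that separate island ran from 78347001 to 78355000, past the upper end given for every KO library. The bin from 78340001 to 78350000, which reaches past the window, had 10 and 10 kb in early KO, against 8.8 and 8.4 kb in early WT, and 8.6 and 9.8 kb in late KO, against 5.8 and 6.4 kb in late WT. Neither stage was called (limma adjusted p = 0.524 and 0.105). The site was chosen after its values were seen, and the share of islands elsewhere with such a separation of widths was not counted. The lower end of this island also began earlier in early KO, so that 78338401 to 78339600 was covered in both early KO and neither early WT list. Below the domain, 78304201 to 78305200 was covered in both early WT and neither early KO list. H3K27ac windows in both early KO and neither early WT list made up 2.93% (6 of 205) around Il2rb, with 7.61% over the genome. Those of the reverse made up 2.44% (5 of 205), with 5.48% over the genome. An open site from 78340601 to 78341600 inside the upper island was present in all 8 DNase libraries, and it reached over 78342001 to 78342800 in both late KO and neither late WT list. With equal lists the run from 78340601 was no longer covered in all 8. Open in WT but not in KO at the same stage were 78311001 to 78311600 in early cells, a run not found with equal lists, and 78308201 to 78309400 in late cells. DNase windows in both WT and neither KO list made up 10.3% (8 of 78) in early cells, with 8.21% over the genome. In late cells they made up 15.7% (11 of 70), with 15.8% over the genome. With equal lists there were 0 of 72 early and 11 of 69 late, with 7.94% and 9.82% over the genome. Those in both late KO and neither late WT list made up 7.14% (5 of 70), with 1.26% over the genome.

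**Figure D4:**
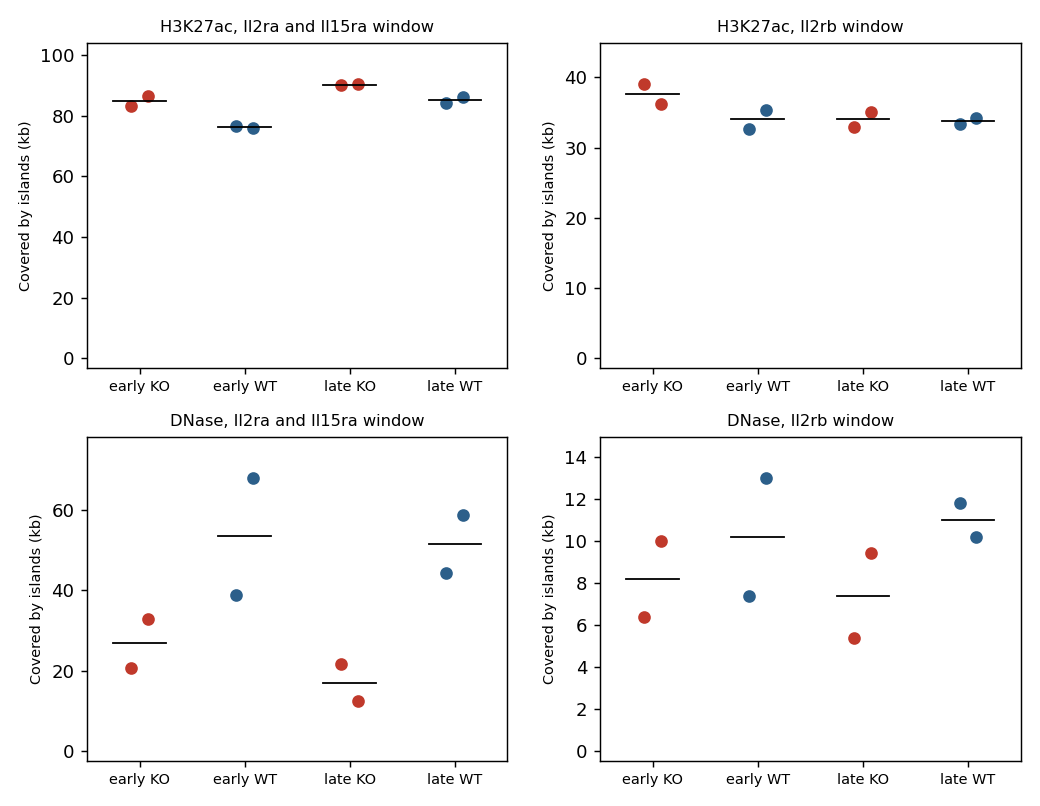
Length covered by islands (y axis, kb) in each window for each library, with KO left of WT at each stage and the mean of 2 libraries as a line. H3K27ac in the Il2ra and Il15ra window is higher in KO than in WT at each stage, DNase there is lower in KO, and the Il2rb window shows smaller differences.

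With time in culture H3K27ac covered more of the Il2ra and Il15ra window in WT cells, while coverage of the Il2rb window overlapped between the stages. Late WT lists covered 84.2 and 86.4 kb of the chromosome 2 window, against 76.8 and 76.0 kb in early WT. The share of tiles over the genome with such an order in time was not counted, in WT or in KO cells. The bin from 11620001 rose (log2 1.43 ± 0.29, SE, limma adjusted p = 0.0229), to 6.4 and 8.8 kb in late WT, against 1.8 and 3.6 kb in early WT. The bin from 78290001 rose as well, to 1.2 and 1.6 kb in late WT, against no island in early WT (limma adjusted p = 0.0232). These were 2 of 16 bins, both higher, where 16.3% of all bins were called (9.54% higher and 6.77% lower), and 0 to 2 were called when 1 library was left out. The chromosome 2 call was also lost without late KO replicate 1 or 2 (limma adjusted p = 0.0613 and 0.0614), and the chromosome 15 call without either early WT library (0.0951 and 0.0765) or late WT replicate 1 (0.0641). Without late WT replicate 2 neither was called (limma adjusted p = 0.11 for the bin on chromosome 2 and 0.113 for that on chromosome 15). The early KO and the time comparison share the early WT libraries. The H3K27ac runs in both late WT and neither early WT list were 11607601 to 11608200, 11619401 to 11620200, 11623801 to 11625000 and 11628601 to 11629200 on chromosome 2, and 78293001 to 78294200 and 78338201 to 78339600 on chromosome 15. Around Il2rb 2.6 kb from 78332001 to 78334600 was acetylated in both early WT and neither late WT list, as was 78304201 to 78305200. Windows of that kind made up 9.14% (18 of 197) there and 0 of 446 on chromosome 2, with 7.13% over the genome. Windows in both late WT and neither early WT list made up 4.04% (18 of 446) on chromosome 2 and 6.60% (13 of 197) on chromosome 15, with 7.84% over the genome. For DNase 0 of 14 bins were called with time by limma, 0 of them with an unadjusted p under 0.05, where 2.71% of all bins were called (0.593% higher and 2.12% lower). DNase windows in both late WT and neither early WT list were 3 of 386 on chromosome 2, and those of the reverse 7 of 386 (runs at 11543601 to 11544200 and 11568601 to 11569200), with 2.67% and 6.21% over the genome. In KO cells, whose change with time was not tested, H3K27ac on chromosome 2 covered 90.2 and 90.4 kb late, against 83.4 and 86.6 kb early, and on chromosome 15 it covered 33.0 and 35.0 kb late, against 39.0 and 36.2 kb early.

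The interaction of genotype and stage was called in 0 of 16 H3K27ac bins by limma (3 with an unadjusted p under 0.05), where 10.1% of all bins were called (3.95% higher and 6.18% lower). For DNase it was called in 0 of 14 (1 with an unadjusted p under 0.05) and in 0 of all 37586 bins. The median log2 change of the tested H3K27ac bins was 0.02 in early KO and -0.03 in late KO, beside -0.03 and -0.04 over all bins. Of these bins, 3 on chromosome 2 and 1 on chromosome 15 were full in all 8 libraries and could show no difference. For DNase the median was -0.34 in early KO and -0.91 in late KO, beside -0.09 and -0.17 over all bins.

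The 10-kb bins elsewhere whose H3K27ac coverage followed that of the Il2ra and Il15ra window most closely over the 8 libraries lay on chromosome 14 from 31970001 (Pearson r = 0.991), chromosome 8 from 11460001 (r = 0.990) and chromosome 19 from 61020001 (r = 0.988). For the Il2rb window they lay on chromosome 1, from 173690001 (r = 0.929), 108600001 (r = 0.908) and 164500001 (r = 0.906). These are the highest among 19076 and 19078 bins with a mean of at least 2 kb, over libraries that share their groups and list lengths, and they are given as a description.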

How the data were processed

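H3K27ac ChIP-seq and DNase-seq gave 16 lists, 2 per assay, stage and genotype, grouped by the labels. Per the submitters' processing notes the tools were SICER 1.1, Bowtie2 and CASAVA 2.18, with build mm9. The deposited lists give each island's position and a score of the caller, which was used only to rank or cut islands within a list. Per the values, islands are made of 200-bp windows. Control libraries and read numbers are not given in the sources used here.

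The genome was divided into 10-kb bins, and the island length in each, on the scale log2(kb + 0.5), was the value tested. A bin entered if 2 or more of the 8 libraries had an island there. Each library was shifted so that the bins occupied in all libraries had an equal median. One limma 3.58.1 model per assay (lmFit, then eBayes with trend, R 4.3.3) held the 4 groups, p-values were adjusted by Benjamini-Hochberg across every bin, and adjusted p under 0.05 is a call. The fit was also run on simulated data with normally distributed noise. Those data lacked the empty bins and the 10-kb ceiling of the real values, so they do not test the fit for such bins. The labels do not tie replicates to different cultures or mice, and a p-value then measures only how far these samples differ, possibly for technical reasons.

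The windows, gene list and tests were chosen with earlier results of these data known. Bins called in any comparison were named, with runs of at least 600 bp found in both libraries of 1 group and neither of the other, and the 3 most alike bins elsewhere. Other bins, runs and sites given in the text were chosen after their values were seen, as were the 130-kb and 55-kb tiles. Pathway and marker genes were not placed, as no mm9 annotation was used here. Alternatives were no centring, quantile normalization, lists cut to the shortest list or to their upper 50% by score, merging of islands up to 1 kb apart, 2 kb as pseudocount, all bins kept, a replicate block, and leaving out every library in turn. Python 3.11.15 with numpy 2.4.6, pandas 2.3.3 and matplotlib 3.10.9 was used.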

Additional observations from a re-analysis of the deposited data

How the results depend on the processing

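Depth is unknown, and the short DNase lists of late KO cells limit every DNase comparison above. Of 128 counts of called bins under alternatives 89 stayed within 1.5 times the count reported, but an equal count can hide other bins. Without centring the 1 late KO bin called for H3K27ac was higher in KO, and it was lower in the fit reported. Of 252 log2 changes of named bins none that was called changed sign. For H3K27ac, late KO had 1 called bin in the fit reported, 2 with lists cut to equal length and 0 with the upper 50% of each list or with no filter on bins. With the upper 50% early KO had 2 and late against early WT had 1. The interaction had 1 with quantile normalization and 1 with equal lists. For DNase, early KO had 1 called bin without centring, late KO had 1 with equal lists, with a pseudocount of 2 kb and with no filter, late against early WT had 1 with equal lists and with the upper 50%, and the interaction had 1 with the upper 50%. When each library was left out in turn, the H3K27ac counts ran from 0 to 1 in early KO, 0 to 2 in late KO, 0 to 2 with time and 0 to 1 for the interaction, and the DNase counts from 0 to 2 in late KO.

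With the replicate number within a stage as a block, late KO had 2 called H3K27ac bins, both higher (1 lower in the fit reported), and 0 called DNase bins (2 in the fit reported). The late H3K27ac bin from 78290001 then had a limma adjusted p of 0.101, and the late DNase bins from 11540001 and 11610001 had 0.162 and 0.115. No other count moved by over 1.5 times. The numbers did not pair the samples: deviations of same-numbered libraries correlated at -0.02 and 0.05 (H3K27ac, early and late) and 0.04 and -0.0008 (DNase).

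The difference in covered kb of the Il2ra and Il15ra window changed as follows. For H3K27ac it was 16.2 kb in early KO with the upper 50% of each list. In late KO it was 6.2 kb with equal lists, 6.2 kb with the upper 50% and 2.03 kb scaled to equal list totals, a setting added after the data were seen. With time in WT it was 7.7 kb with equal lists, 15.3 kb with the upper 50% and 11.0 kb scaled. For DNase in early KO, reported as -26.5 kb, it was -17.6 kb with equal lists, -11.2 kb scaled and -41.1 to -11.9 kb with 1 library left out (without early WT replicate 1 and without early WT replicate 2). In late KO it was -22.1 kb with equal lists and -17.1 kb scaled. For the Il2rb window in late KO the H3K27ac difference was -1.1 kb with equal lists and -0.91 kb scaled, and the DNase difference was -7.9 kb with the upper 50% and 2.32 kb scaled. In early KO the DNase difference there turned from -2.0 kb to 1.13 kb scaled and to 0.8 kb without early WT replicate 2. The cause of these shifts was not tested beyond the settings named.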
